A study of Saccharomyces cerevisiae with 21 samples.

Results

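Selection for a protein-protein interaction reporter in metformin medium was followed in a barcoded library of budding yeast, Saccharomyces cerevisiae, by comparing the share of each strain barcode with and without methotrexate (MTX). The comparison uses 4 of the 21 libraries in the series, chosen by their titles. These are replicates A and B grown with 50 mM metformin and 10 µg/mL MTX, and replicates A and B grown with 50 mM metformin and no MTX, all at 96 h. Replicates A and B grown with 10 µg/mL MTX and no drug, and replicates A and B grown with neither, also at 96 h, were used to ask where the MTX effect in metformin differed. Libraries with 5-FC, fluconazole and trifluoperazine entered the shared estimate of the spread and 1 further comparison. All cultures came from 1 in-house strain library and grew in minimal medium with glucose and leucine, with daily passage into fresh medium. Each library counts 361 strain barcodes in each of 62 pools. Of these pools, 61 are named by a pair among 44 proteins, and the last, noPPI_reference, names no pair and is called the reference pool; the reporter it carries is not stated in the sources used here. Strain genotypes were not used here, so strains are called by their barcode names. No measured value checks the presence of metformin or MTX apart from the labels.

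In the protein-fragment complementation assay named in the series' design, each of a pair of proteins is fused to a fragment of dihydrofolate reductase, and the fragments form a working enzyme when the proteins meet in the living cell. MTX blocks the yeast's own enzyme, which regenerates the folate needed to make purines and thymidylate, while the reporter enzyme resists the drug. Growth in MTX therefore depends on how much reporter a strain assembles, and growth without MTX does not. Metformin is a biguanide used against type 2 diabetes, known in animal cells for lowering mitochondrial respiration.

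The libraries held 7951388 and 10620612 reads in metformin with MTX and 8421658 and 8769860 reads in metformin without MTX. The smallest pool had 33402 and 49781 reads with MTX, and 25194 and 19381 reads without MTX. PCR products were combined by growth medium, so the size of a pool carries no information on growth and a strain was measured as its share of the pool. A strain barcode in a pool is called a feature, and the 15974 of 22382 features that averaged 10 reads or more over the libraries at 96 h were tested. They held 99.7% of the reads of the metformin libraries. Over these features the log2 shares of replicates A and B correlated with r = 0.910 with MTX and r = 0.896 without MTX, as a description across features of 2 libraries each. The labels do not say that A and B were separate cultures, so p-values measure only the spread between these libraries, which may be technical.

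Replicate B without MTX stood apart from replicate A. Over the tested features its r with the fluconazole libraries without MTX was 0.612 and 0.636, against 0.558 and 0.554 for replicate A, while with the no-drug libraries without MTX it was 0.866 and 0.869, against 0.899 and 0.886 for replicate A. The gap in r with fluconazole passed 0.1 in 21 pools. In the reference pool, strain 192 made up 4.84% of replicate B and 0.0931% of replicate A, and 19.8% and 21.4% of the fluconazole libraries without MTX. The cause was not tested. The main counts below are therefore also given with replicate A alone on the side without MTX.

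Fewer strains carried the pools when MTX was present. The effective number of strains, the exponential of the Shannon entropy of the strain shares, had a median over pools of 22.8 and 24.9 in metformin with MTX and of 49.2 and 52.0 in metformin without MTX. The means were 23.9 ± 1.51 and 50.6 ± 1.98 (SD, n = 2 each), a difference of -26.7 strains. An exact two-sided permutation test gave p = 0.333, which is the smallest p that 2 libraries against 2 can give. The mean was lower with MTX in 61 of 62 pools, and in 58 pools both MTX replicates lay below both replicates without MTX.

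**Figure D1:**
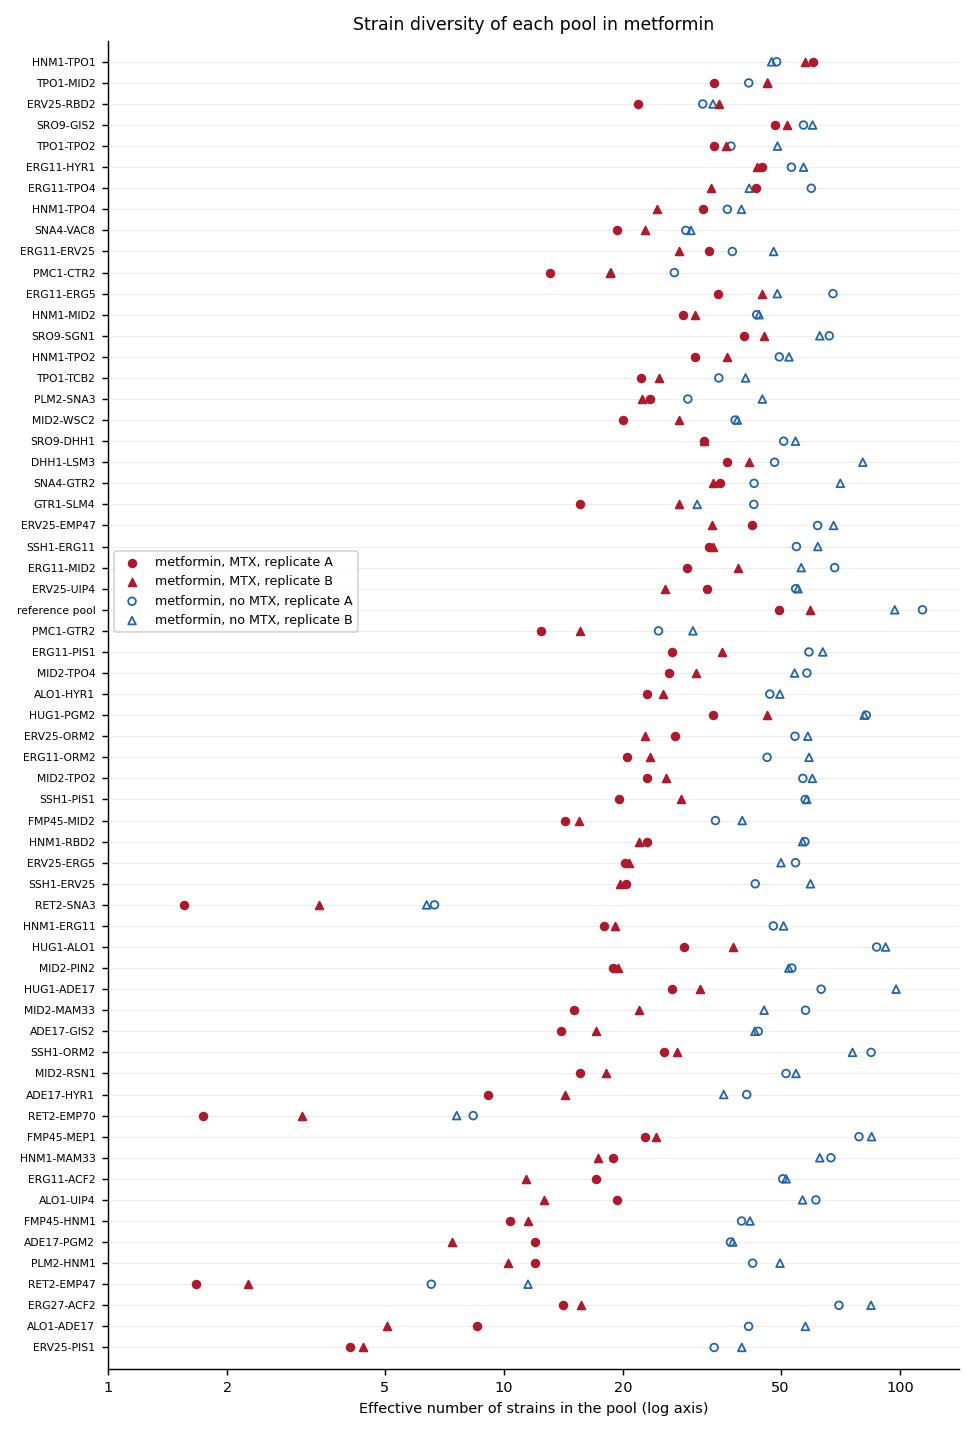
Effective number of strains (log axis) of each of the 62 pools in metformin, with filled symbols for MTX, open symbols for no MTX, circles for replicate A and triangles for replicate B, ordered by the ratio of MTX over no MTX. Filled symbols lie left of both open symbols in 58 pools, and HNM1_TPO1 at the top is the pool with both to the right.

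The pairs differed widely in how far they narrowed. The narrowest pool relative to its unselected state was ERV25_PIS1, which pairs a p24 cargo receptor of vesicles between the endoplasmic reticulum and the Golgi with phosphatidylinositol synthase. It had 4.09 and 4.41 effective strains with MTX, against 34.0 and 39.9 without MTX, a ratio of means of 0.115. Next came ALO1_ADE17, an arabinonolactone oxidase that makes an ascorbate-like antioxidant with a transformylase of purine synthesis, at 8.55 and 5.05 with MTX against 41.5 and 57.7 without. ERG27_ACF2, a sterol keto reductase with a cytosolic glucanase, had 14.1 and 15.7 with MTX against 70.2 and 84.6 without. All 4 values of each of these pools kept the conditions apart. RET2_EMP47, a COPI coat subunit with a lectin-like cargo receptor, had few strains in either condition, with 1.67 and 2.26 with MTX and 6.55 and 11.5 without. PLM2_HNM1, a protein with a forkhead-associated domain with the choline transporter, had 12.0 and 10.2 with MTX and 42.5 and 49.8 without.

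At the other end, HNM1_TPO1, the choline transporter with a polyamine exporter of the plasma membrane, was the pool that went the other way without overlap. It had 60.3 and 57.6 effective strains with MTX and 48.8 and 47.4 without MTX, a ratio of 1.22. The pools of TPO1 with the cell wall sensor MID2 (33.8 and 46.3 with MTX, 41.5 and 46.4 without) and of TPO1 with its relative TPO2 (33.8 and 36.4 with MTX, 37.5 and 49.1 without) had ratios of 0.912 and 0.812. In TPO1_MID2 the conditions overlapped, so no narrowing was seen beyond the spread. ERV25_RBD2, in which RBD2 is a rhomboid-like protein of the Golgi, also overlapped, with 21.9 and 34.9 with MTX and 31.8 and 33.7 without. SRO9_GIS2, a pair of RNA-binding proteins, had 48.4 and 51.8 with MTX against 57.1 and 60.2 without. The reference pool had 49.4 and 59.3 with MTX and 114 and 97.1 without, a ratio of 0.515 beside the median of 0.494 over all pools.

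Of the 15974 features tested, 5607 (35.1%) passed an adjusted p under 0.05 by edgeR's quasi-likelihood test with Benjamini-Hochberg adjustment. The share of the pool was higher with MTX for 810 (5.07%) and lower for 4797 (30.0%). In 5566 of the called features the replicates did not overlap, but this was not counted over all tested features and so adds no support. The median log2 fold change of all features was -0.77 relative to the pool total, -0.15 with TMM scaling within each pool and -0.02 with TMM over whole libraries. The size of the split into higher and lower calls therefore depended on the scaling, while falls outnumbered rises under each. With TMM within each pool, 1779 of 5630 calls were higher (31.6%, against 14.4% relative to the pool total). With TMM over whole libraries, 789 of 3490 calls were higher (22.6%). With replicate A alone on the side without MTX, 4085 features were called, of which 249 were higher and 3836 lower, and 4039 of them were also among the 5607. Leaving out replicate A or B with MTX gave 3479 and 3577 calls.

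Every pool had more falls than rises relative to its total. The share of tested strains called ranged over pools from 8.12% to 61.2% with a median of 40.1%, and from 4.69% to 51.7% with a median of 28.9% with replicate A alone. The reference pool had the highest share, 199 of 325 strains with 36 higher and 163 lower (51.7% called with replicate A alone). Behind it came the pools of MID2 with the membrane protein RSN1 (166 of 302, 55.0%), of ALO1 with ADE17 (131 of 247, 53.0%), of the ribonucleotide reductase inhibitor HUG1 with the phosphoglucomutase PGM2 (150 of 286, 52.4%) and of MID2 with PIN2 (170 of 327, 52.0%). MID2_RSN1 kept 47.7% and ALO1_ADE17 42.1% with replicate A alone. Relative to pool totals, these pools all lay well above the 35.1% of all features. Shares called by pool were not counted under other scalings, so the order of pools may depend on the scaling.

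The 5 lowest shares called were in pools of ERG11, the lanosterol demethylase of ergosterol synthesis, or of SRO9, a La-motif RNA-binding protein. SRO9 with the RNA-binding SGN1 had 26 of 320 strains called (8.12%), ERG11 with the peroxidase HYR1 25 of 285 (8.77%), and SRO9_GIS2 25 of 284 (8.80%). ERG11_ERV25 followed with 28 of 271 (10.3%) and ERG11 with the sterol desaturase ERG5 with 32 of 277 (11.6%). With replicate A alone these 5 pools had between 4.69% and 8.66%. ERG11 pools were not all low, with 122 of 272 strains called in ERG11_ACF2 (44.9%) and 100 of 267 in HNM1_ERG11 (37.5%). The effect in replicate A and in replicate B correlated across strains least in ERG11_ERG5 (r = 0.294). Next were ERG11 with the sphingolipid regulator ORM2 (0.413), ERG11_ERV25 (0.421) and DHH1_LSM3 (0.424). The highest values were r = 0.923 in ERV25_PIS1, 0.922 in HUG1_ALO1 and 0.915 in ALO1_HYR1. The ERG11 pools differed here too, up to r = 0.858 in ERG11_ACF2. The gap in r with fluconazole, replicate B minus A without MTX, was 0.212 in ERG11_ERG5, 0.188 in ERG11_ORM2 and 0.124 in ERG11_ERV25. It was also 0.106 in ERG11_ACF2, and -0.064 in DHH1_LSM3. Whether it bears on these correlations was not tested.

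**Figure D2:**
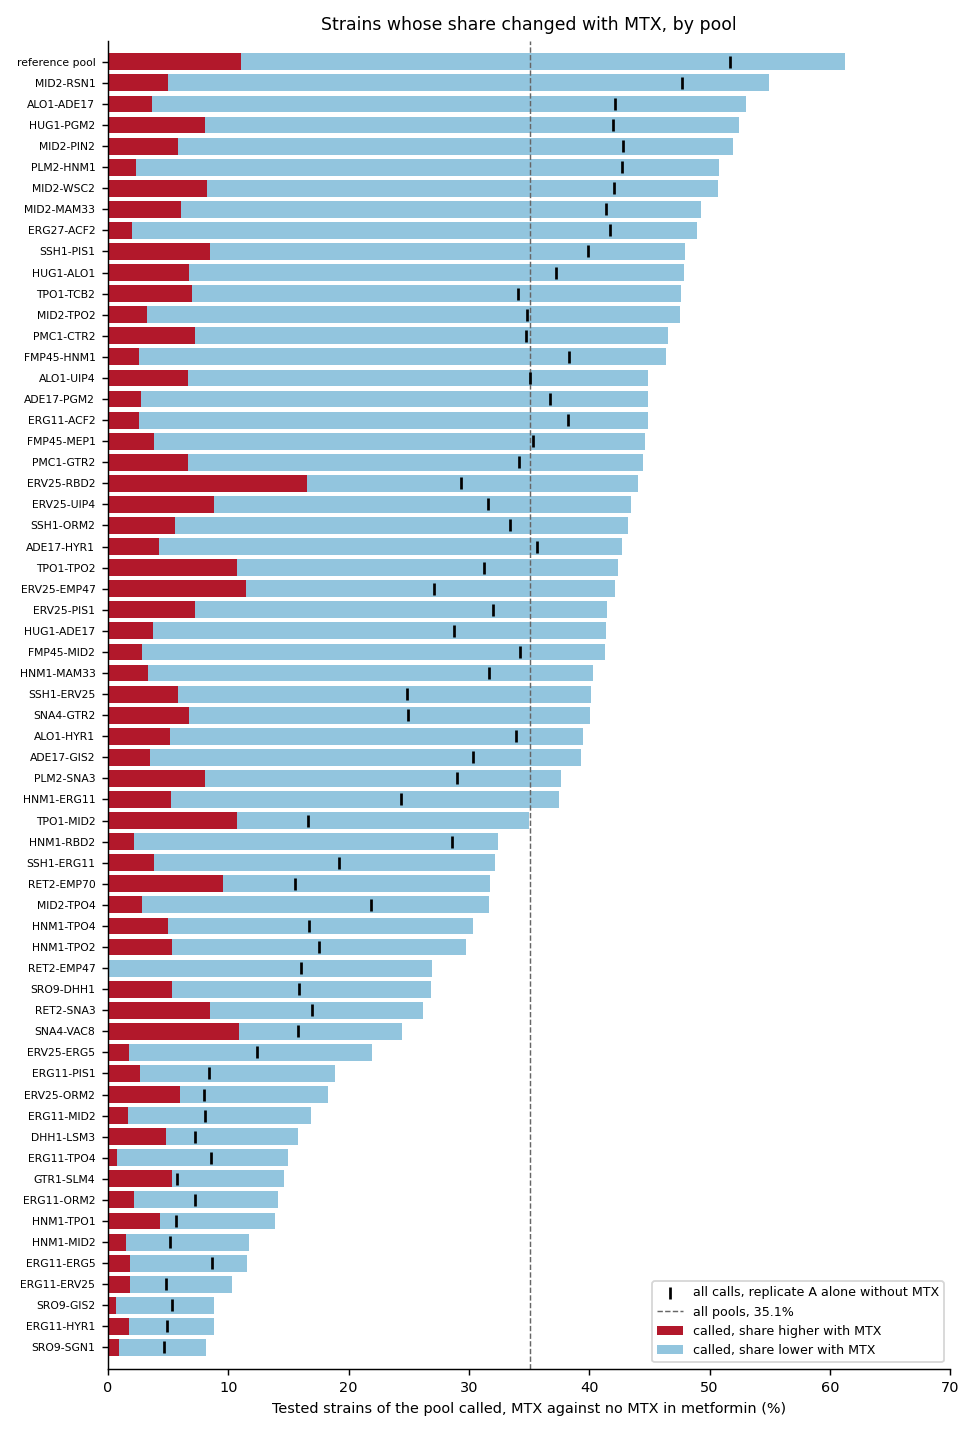
Percent of tested strains called higher (dark) and lower (light) with MTX in metformin for each of the 62 pools; ticks give the percent called with replicate A alone without MTX, and the dashed line the 35.1% of all features. Relative to pool totals, the reference pool reaches 61.2% and SRO9_SGN1 8.12%, and falls outnumber rises in every pool.

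Grouping the pools by the role of their proteins gave shares that are read here against 35.1% called and a median log2 fold change of -0.77 over all features. A pool counts in each group that holds 1 of its proteins, so the groups share pools. Group values are relative to the pool total and were not counted under other scalings. The pools with SRO9, DHH1 or GIS2, called the RNA-binding pairs here, had 252 of 1379 features called (18.3%, 41 of them higher, median -0.44) in 5 pools. They include ADE17_GIS2, in which only GIS2 is an RNA-binding protein. That pool went the other way, with 79 of 201 called (39.3%, median -1.05). The 11 ergosterol pools of ERG11 and ERG5 had 646 of 3079 (21.0%, 73 higher, median -0.63). The list did not hold the sterol reductase ERG27, whose pool ERG27_ACF2 had 121 of 247 called (49.0%, median -2.05). The lipid synthesis pools of PIS1 and ORM2 had 485 of 1631 (29.7%, 85 higher, median -0.77), and the 3 COPI pools of RET2 129 of 453 (28.5%, 27 higher, median -0.35). Each of these groups, taken as a whole, stood below the share of all features.

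The largest shares called were in the pools of HUG1, which restrains ribonucleotide reductase under replication stress, with 396 of 836 features (47.4%, 52 higher, median -1.24). The purine synthesis enzyme ADE17 had 495 of 1114 (44.4%, 40 higher, median -1.55) in 5 pools, and FMP45, a protein of plasma membrane domains, 373 of 846 (44.1%, 26 higher, median -1.39) in 3. The translocon protein SSH1 followed with 453 of 1115 (40.6%, 65 higher, median -1.40), the cell wall sensors MID2 and WSC2 with 1092 of 2783 (39.2%, 127 higher, median -1.13), and the antioxidant enzymes ALO1 and HYR1 with 602 of 1545 (39.0%, 73 higher, median -0.86). Nearer the share of all features, RBD2 had 155 of 400 (38.8%, 40 higher) and the vacuole membrane proteins 511 of 1331 (38.4%, 103 higher, median -0.31).

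Close to the share of all features were the polyamine exporters TPO1, TPO2 and TPO4 with 738 of 2250 (32.8%, 120 higher), the choline transporter HNM1 with 721 of 2197 (32.8%, 77 higher), ERV25 with 704 of 2180 (32.3%, 157 higher) and the EGO complex, a regulator of TORC1 at the vacuole, with 273 of 795 (34.3%, 50 higher, median -0.18). With replicate A alone, every group had a lower share, from 11.4% in the RNA-binding pairs and 13.1% in the ergosterol pools to 36.1% in the HUG1 pools.

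The rises named here were of strains that held under 0.4% of their pool without MTX and, with it, from 0.327% to 21.0%. The rule took the 10 largest called changes in each direction with a mean share of at least 1% in the higher condition and no overlap, at most 1 per pool and per strain. Each of the 5 ADE17 pools gave 1 of the 10 rises, although rises were not frequent in them (40 of 1114 features, 3.59%, against 5.07% of all features). In ADE17_HYR1, strain 984 held 21.0% and 18.8% with MTX, against 0.175% and 0.0646% without MTX. In ADE17_PGM2, strain 421 held 12.9% and 7.53% with MTX, against 0.0690% and 0.0536% without MTX. Both log2 fold changes were 7.38, with standard errors of 1.01 and 0.79 and adjusted p-values of 3.0e-05 and 6.4e-06 by edgeR's quasi-likelihood test.

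In ADE17 with GIS2, strain 760 held 8.66% and 6.50% with MTX, against 0.0814% and 0.117% without MTX (log2 fold change 6.24 ± 0.70 SE, adjusted p 7.5e-06). The other ADE17 rises were smaller. Strain 842 in ALO1_ADE17 had 5.57% and 3.19% with MTX against 0.181% and 0.318% without (4.13 ± 0.98, adjusted p 0.0026). Strain 658 in HUG1_ADE17 had 0.518% and 1.89% with MTX against 0.0226% and 0.0855% without (4.47 ± 0.88, adjusted p 6.1e-04, and 5.73 with replicate A alone). In each of these pools the MTX replicates lay above both replicates without MTX, as the rule required.

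Outside ADE17, strain 564 in ERV25_RBD2 held 4.02% and 3.15% with MTX, against 0.0479% and 0.0539% without (6.13 ± 0.84, adjusted p 3.0e-05). Strain 690 in SSH1_ORM2 held 1.81% and 5.30% with MTX against 0.0985% and 0.167% without (4.74 ± 1.18, adjusted p 0.0038). Strain 491 in the pair of PLM2 with SNA3, which acts in sorting to the vacuole, held 4.24% and 3.17% with MTX against 0.206% and 0.0944% without (4.62 ± 0.88, adjusted p 4.7e-04). These too were set apart from their values without MTX in both replicates. Strain 1018 in ERG11_PIS1 held 2.95% and 1.82% with MTX against 0.195% and 0.113% without (3.95 ± 0.75, adjusted p 4.8e-04). The last was strain 50 in the pair of TPO1 with the tricalbin TCB2, a tether between the endoplasmic reticulum and the plasma membrane, with 0.327% and 3.19% with MTX against 0.0384% and 0.0630% without (5.11 ± 1.69, adjusted p 0.023). Its MTX replicates were far apart. It was not called without replicate B with MTX (2.68, adjusted p 0.27), without replicate A of no MTX (adjusted p 0.15) or without replicate B of no MTX (adjusted p 0.11).

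The falls chosen by the same rule were of strains that averaged over 1% of their pool without MTX and were reduced to a handful of reads with it. In MID2_WSC2, a pair of cell wall sensors, strain 476 had 5 and 9 reads with MTX (0.00551% and 0.0167%) and 15.2% and 18.8% of the pool without MTX, a log2 fold change of -10.63 ± 1.08 SE (adjusted p 3.6e-06). In the reference pool, strain 521 had 10 and 17 reads with MTX (0.0156% and 0.00548%) and 10.2% and 13.7% without MTX (-10.26 ± 0.97, adjusted p 2.3e-06). Strain 589 in the pair of RET2 with the endosomal protein EMP70 had 8 and 4 reads with MTX and 5.48% and 5.38% without MTX (-9.61 ± 0.92, adjusted p 2.3e-06). These were large strains that were all but lost from both MTX replicates.

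Strain 857 in ALO1_ADE17 had 13 and 4 reads with MTX and 3.67% and 7.13% without (-9.62 ± 1.05, adjusted p 6.6e-06). Strain 992 in RET2_SNA3 had 0 and 4 reads with MTX and 5.38% and 3.72% without (-10.60 ± 1.83, adjusted p 3.2e-04). Strain 1007 in PLM2_HNM1 had 0 and 4 reads with MTX and 0.365% and 4.28% without (-10.42 ± 1.84, adjusted p 2.9e-04), and its fold change was -7.76 with replicate A alone. Its values without MTX were thus unequal, though both lay above the MTX values.

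For 4 further falls the MTX reads summed to between 1 and 3, so the fold is given as a ratio of shares with an exact 95% interval that covers counting error only. Without MTX, strain 807 in ERV25_RBD2 was 3110 times its share with MTX (interval 558 to 122823), with 0 and 1 read with MTX and 2782 and 2116 reads without. Strain 892 in ADE17_HYR1 had 1 and 0 reads with MTX and 227 and 3700 reads without, a ratio of 4127 (741 to 162995), and of 502 (90.1 to 19825) with replicate A alone. Strain 392 in HUG1_ADE17 had 0 and 2 reads with MTX and 4087 and 1445 without (2340, interval 648 to 19320, and 3750 with replicate A alone), and strain 735 in ADE17_PGM2 2 and 1 reads with MTX and 734 and 3832 without (1544, interval 528 to 7489). Adjusted p-values by edgeR's quasi-likelihood test lay between 2.3e-06 for strain 807 and 7.7e-05 for strain 892. All 10 falls were also called with replicate A alone. Among all called falls, 110 features had 0 reads in both MTX libraries (99 among those called with replicate A alone).

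**Figure D3:**
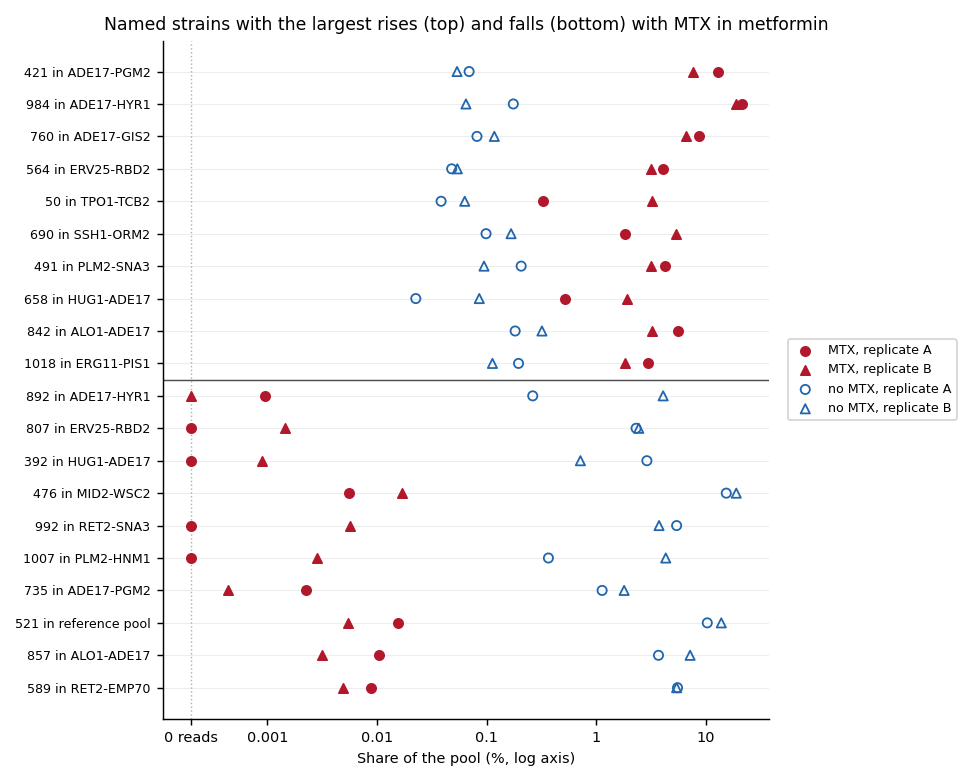
Share of the pool (percent, log scale) with MTX and without MTX for the 10 rises and 10 falls described in the text, with filled symbols for MTX and open symbols for no MTX, circles for replicate A and triangles for B, and values of 0 drawn at the left edge. Points of the 2 conditions do not overlap for any of the 20 features, as the rule that chose them required.

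A single strain held over 50% of a pool in both MTX replicates in 6 pools. Strain 838 held 78.3% and 76.7% of ERV25_PIS1 with MTX, against 12.1% and 14.0% without (log2 fold change 2.57 ± 0.63 SE, adjusted p 0.0036, and 0.086 with TMM over whole libraries). In ALO1_ADE17 it held 58.5% and 71.4% with MTX, against 13.9% and 7.65% without (2.59 ± 0.56, adjusted p 0.0012). These are the pools that narrowed most. In FMP45_HNM1 strain 838 held 56.0% and 53.2% with MTX and 24.0% and 24.3% without, a change that did not pass the test (1.18 ± 0.46, adjusted p 0.052) but did with TMM within each pool (2.11, adjusted p 0.022).

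The 3 pools of the COPI subunit RET2 were led by another strain, 756, in both conditions. It held 92.8% and 88.5% of RET2_EMP47 with MTX and 58.5% and 47.3% without, 92.3% and 82.9% of RET2_EMP70 with MTX and 52.9% and 53.1% without, and 94.1% and 81.2% of RET2_SNA3 with MTX and 58.9% and 59.2% without. None of these passed the test (log2 fold changes 0.78, 0.72 and 0.57, adjusted p 0.088, 0.098 and 0.22), although the replicates did not overlap. In a fit of the 4 metformin libraries alone, the adjusted p-values were 0.032 in RET2_EMP47 and 0.033 in RET2_EMP70.

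Strain 838 was the leading strain of 42 pools in both MTX replicates and of 14 pools in both replicates without MTX. Its median share over pools was 27.7% and 26.8% in metformin with MTX and 8.65% and 10.7% in metformin without MTX. In cultures without drug its median share was 33.3% and 31.2% with MTX and 7.80% and 8.01% without MTX. It lay above its unselected share in both MTX replicates in 55 pools and below it in 2. In the pools of ADE17 with GIS2, HYR1, PGM2 and HUG1 it held 1.26% to 4.58% with MTX and 1.26% to 4.26% without MTX. The leading strain in both MTX replicates was 598 in ADE17_GIS2, 690 in ADE17_HYR1 and 727 in ADE17_PGM2. HUG1_ADE17 was led by strain 539 in MTX replicate A and by strain 649 in MTX replicate B. The rises named above of strains 760, 984, 421 and 658 were in these pools, but strain 760 was also called higher in other pools.

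Read counts summed over the pools put 215 of 361 strains (59.6%) past the test, with 97 higher and 118 lower under TMM scaling. Such sums weight each pool by its reads, which carry no information on growth. A strain's sum can therefore move when pool totals differ between libraries, and TMM does not correct this. By limma on mean log2 shares, which weights pools equally, 255 were called (51 higher, 204 lower), 168 of them among the 215. Scaled by total reads 208 were called, of which 47 were higher and 161 lower, and with replicate A alone 174 were called (79 higher, 95 lower). The largest summed rises began with strains 999 and 983, which were rare without MTX. Strain 999 made up 0.0171% and 0.0132% of all reads with MTX, against 0.00218% and 0.00214% without (log2 fold change 3.58 ± 0.52 SE, adjusted p 7.8e-05). Strain 983 made up 0.306% and 0.242% with MTX, against 0.0491% and 0.0428% without (3.35 ± 0.31, adjusted p 3.6e-06). Then came strain 760 with 2.00% and 2.18% with MTX against 0.431% and 0.435% without (3.03 ± 0.36, adjusted p 1.4e-05), followed by strains 491 and 649 with log2 fold changes of 3.00 and 2.92. The replicates of these strains were close beside the size of the change.

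The largest summed falls were of strains 607 (-3.95 ± 0.60, adjusted p 1.0e-04), 992 (-3.74 ± 0.38, adjusted p 5.2e-06), 596 (-3.23 ± 0.50, adjusted p 1.2e-04), 924 (-3.21 ± 0.44, adjusted p 5.8e-05) and 715 (-3.16 ± 0.64, adjusted p 7.4e-04). Strain 992 made up 0.0213% and 0.0228% of all reads with MTX, against 0.397% and 0.607% without. Strain 607 was less even without MTX, with 0.00357% and 0.00460% with MTX against 0.0566% and 0.158% without. Strains 607 and 924 passed the read filter in only a minority of pools, and in some of these they were not called. Their summed falls therefore do not stand for a fall across the pools.

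Relative to pool totals, falls recurred over more pools than rises. Strain 589 was called lower in 56 pools, 843 in 55, 857 in 54, 476 in 53 and 992 in 51, and none of these was called higher in any pool. With replicate A alone they were called lower in 49, 52, 48, 48 and 44 pools. The strains called higher in the most pools were 838 (36 pools, and lower in 1), 760 (35), 983 (31), 841 (30, and lower in 1) and 649 (29). These counts dropped to 18, 19, 9, 21 and 3 with replicate A alone. Over all features, called rises dropped about as far when replicate A without MTX was left out instead. Fewer rises were thus called with either library left out, and the drop is not particular to replicate B. Counts by strain were not made for that fit. With all libraries, 132 strains were called higher in at least 1 pool, 300 lower in at least 1, and 96 higher in some and lower in others. Strain identity carried 57.2% of the variance of the log2 changes and pool identity 6.90%, which left 35.9%; replicate error came to 11.4% of the total.

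**Figure D4:**
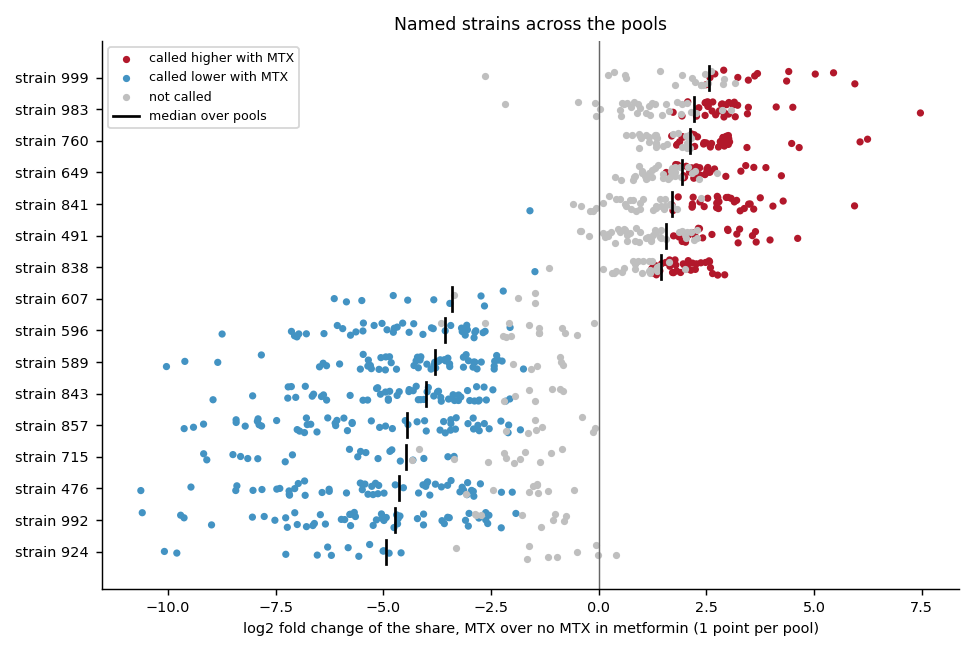
Log2 fold change of the share, MTX over no MTX in metformin, in each tested pool for the strains named above, with 1 point per pool, coloured by call, and a bar at the median over pools. Strains 838 and 841 are each called higher in 36 and 30 pools and lower in 1.

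MTX reshaped the pools less in metformin than without drug. Median effective strains over pools with MTX were 22.8 and 24.9 in metformin and 19.5 and 17.8 without drug. Without MTX they were 49.2 and 52.0 in metformin and 60.3 and 59.2 without drug, so both terms of the ratio differed. The ratio of effective strains with MTX over without MTX had a median over pools of 0.494 in metformin and 0.291 without drug, and was higher in metformin in 58 of 62 pools and in 60 with replicate A alone. Within pools, log2 shares with and without MTX correlated with a median r of 0.539 (A) and 0.542 (B) in metformin and of 0.288 and 0.309 without drug. Over all tested features that r was 0.518 to 0.545 in metformin, and 0.279 to 0.348 in the other media. These are descriptions, with 2 libraries a group. The 4 pools whose ratio was not higher in metformin were MID2_TPO2 (0.415 in metformin, 0.450 without drug), FMP45_HNM1 (0.267 and 0.323), ALO1_ADE17 (0.137 and 0.140) and RET2_EMP47 (0.217 and 0.218). The widest gap among the pools already described was in ERV25_RBD2, at 0.867 in metformin and 0.066 without drug.

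**Figure D5:**
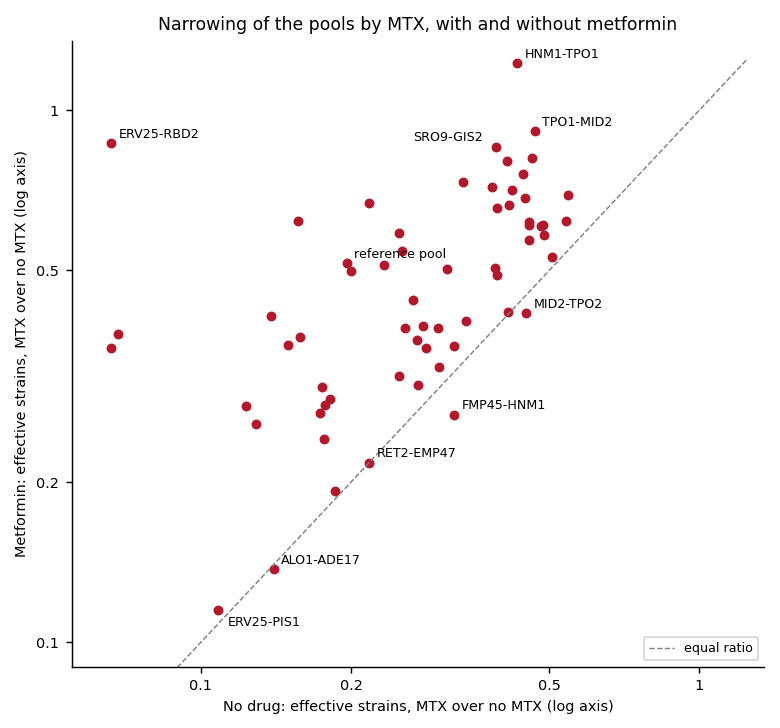
Ratio of effective strains with MTX over without MTX in metformin against the same ratio without drug, with a point per pool and a line at equality. Points lie above the line in 58 of 62 pools, with medians of 0.494 in metformin and 0.291 without drug.

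Tested directly, the MTX effect in metformin differed from that without drug for 1887 features (11.8%), of which 1725 (10.8%) had a higher effect in metformin and 162 (1.01%) a lower one (edgeR, adjusted p under 0.05). The median difference over all features was 1.12 on the log2 scale, 0.54 with TMM within each pool and 0.79 with TMM over whole libraries. Of the 1887, 1249 fell with MTX by the fitted values in both media, and 1246 of these fell less in metformin. A further 470 were higher with MTX in metformin and lower with MTX without drug. The count was 793 (725 higher, 68 lower) without replicate B of metformin without MTX, and 825 without its replicate A. Leaving out 1 library elsewhere gave 1110 without replicate B of metformin with MTX, 921 and 1031 without replicates A and B of no drug with MTX, and 1115 and 1094 without replicates A and B of no drug without MTX. Under TMM scaling 1165 were called within pools (82.2% of them higher, against 91.4%) and 277 over whole libraries.

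Higher effects outnumbered lower ones in 60 of 62 pools, and in 58 with replicate A alone. The exceptions were MID2_TPO2 with 4 higher and 10 lower, and PLM2_HNM1 with 8 and 11. The share called ranged from 3.21% in RET2_EMP47 to 33.1% in RET2_SNA3, where 43 of 130 were higher and 0 lower but only 9 were called with replicate A alone. Pairs of the choline transporter, chosen after their values were seen, ran from 77 of 273 higher in HNM1_MID2 (46 called with replicate A alone) and 64 of 230 in HNM1_TPO1 (43 with replicate A alone), with 0 lower in either, to 7 higher and 6 lower of 274 in FMP45_HNM1. By role, the share called was 16.1% in HNM1 pools (323 higher, 30 lower), 16.0% in the RNA-binding pairs (208 higher, 12 lower), 13.8% in the polyamine exporter pools (285 higher, 25 lower) and 12.5% in the ergosterol pools (372 higher, 14 lower). It was lowest in FMP45 pools at 7.09% (46 higher, 14 lower) and the antioxidant pools at 7.70% (104 higher, 15 lower), beside 11.8% of all features. These shares with replicate A alone were 8.01% in HNM1 pools, 7.32% in the RNA-binding pairs, 7.47% in the polyamine exporter pools, 5.33% in the ergosterol pools, 1.54% in FMP45 pools and 2.33% in the antioxidant pools, beside 4.96% of all features. ERG27_ACF2, outside the ergosterol list, had 11 higher and 3 lower (5.67%).

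The 5 strains called lower in the most pools fell less far in metformin in some of these pools. Strain 857 averaged over pools 0.304% and 0.342% in metformin with MTX and 3.57% and 3.66% in metformin without MTX, and 0.0102% and 0.0124% with MTX and 4.02% and 3.70% without MTX in cultures without drug. Strain 476 averaged 0.253% and 0.243% in metformin with MTX and 3.67% and 3.51% in metformin without MTX, and 0.0368% and 0.0100% with MTX and 3.58% and 3.49% without MTX in cultures without drug. Without MTX the mean shares of both strains lay between 3.49% and 4.02% in either medium, and with MTX the metformin values lay above those without drug. The difference was called higher in metformin for strain 476 in 35 pools, 857 in 31, 843 in 22, 589 in 14 and 992 in 10, and lower in 0 pools for each. These counts were 17, 15, 11, 7 and 5 with replicate A alone. Strain 841 moved in the other order, with a mean share of 0.267% and 0.283% in metformin with MTX against 0.0417% and 0.0627% in metformin without MTX, and 0.0817% and 0.0783% with MTX against 0.0689% and 0.0616% without MTX in cultures without drug. Its rise was larger in metformin by the test in 9 pools, and in 7 with replicate A alone.

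Against the mean MTX effect in the other 4 media, 2436 features differed (15.2%), 2257 of them higher in metformin (14.1%) and 179 lower (1.12%). The comparison shares its metformin libraries with the one above, so the counts are not independent. The count was 747 without replicate B of metformin without MTX, 661 without its replicate A, and 1400 without replicate B of metformin with MTX. The polyamine exporter TPO4 was in 3 of the 5 largest higher differences, which are single features. Shares called by protein were not counted for this comparison. In HNM1_TPO4, strain 795 held 4.55% and 3.14% in metformin with MTX and 3.28% and 3.95% in metformin without MTX. Without drug it held 0.0132% and 0.0178% with MTX and 4.18% and 3.84% without MTX, and in the other 3 media it averaged 0.00611% to 0.0254% with MTX and 3.36% to 4.36% without. The strain kept its share in metformin and lost nearly all of it in the other 4 media, a difference of 8.12 ± 0.73 SE (edgeR, adjusted p 7.6e-06).

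Strain 521 in ERG11_TPO4 had the same shape, with 1.37% and 0.504% in metformin with MTX and 1.00% and 1.60% in metformin without MTX, and 0.00420% and 0.00115% with MTX and 0.940% and 1.06% without MTX in cultures without drug (8.23 ± 1.40, adjusted p 7.4e-04). Strain 992 in MID2_TPO4 (8.98 ± 1.11, adjusted p 7.4e-05 by edgeR) fell in metformin too, to 0.0743% and 0.174% with MTX against 0.564% and 0.636% without. In the other 4 media its means with MTX were 0% to 0.000934%, so the size of this difference rests on very few reads. The other higher differences were strain 959 in HNM1_TPO2 (9.25 ± 0.91, adjusted p 1.8e-05) and strain 599_ref1 in ADE17_GIS2 (8.10 ± 1.32, adjusted p 5.3e-04).

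Of the 5 largest lower differences, 3 were also called with replicate A alone. Strain 734 in PLM2_HNM1 held 0.0542% and 0.0855% in metformin with MTX and 0.883% and 0.539% in metformin without MTX, against 3.37% and 1.88% with MTX and 0.439% and 0.409% without MTX in cultures without drug (-4.50 ± 0.81, adjusted p 0.0011, and 0.059 with TMM over whole libraries). Its share was thus lower with MTX in metformin and higher with MTX without drug, with no overlap in either medium. In 5-FC it averaged 1.59% with MTX and 0.599% without. The means lay closer in fluconazole (0.384% with MTX, 0.337% without) and trifluoperazine (0.864% and 0.657%), with SDs of up to 0.327 and 0.426. Strain 392 in HUG1_ADE17 differed by -4.51 ± 1.30 (adjusted p 0.024), with 0 and 2 reads in metformin with MTX. It was as scarce without drug, with 0 and 2 reads with MTX and a mean of 1.04% without MTX, and in trifluoperazine, with means of 0.000434% with MTX and 0.991% without. It averaged 0.0109% with MTX and 0.576% without in 5-FC, and 0.0269% with MTX and 0.0313% without in fluconazole. It was not called with TMM over whole libraries (adjusted p 0.066), without replicate A or B of metformin with MTX (adjusted p 0.074 and 0.14) or without replicate A of metformin without MTX (adjusted p 0.17).

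In the other 3 the replicates without MTX were far apart. Strain 648 in PLM2_SNA3 differed by -7.44, and by -2.89 with replicate A alone, where it was still called (adjusted p 0.018). Strain 252 in the reference pool differed by -5.89 (adjusted p 0.019), and by -2.37 with replicate A alone (adjusted p 0.35). Strain 89 in ERG11_PIS1 differed by -5.78 (adjusted p 0.023), and by 0.57 with replicate A alone (adjusted p 0.84), so its direction turned. Without replicate A or B of metformin with MTX the adjusted p-values were 0.12 and 0.10 for strain 252 and 0.14 and 0.11 for strain 89. In metformin without MTX strain 89 made up 0.0592% of replicate A and 9.62% of replicate B, beside a mean of 24.6% in fluconazole without MTX.

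Set against the same strain in the reference pool, the MTX effect in metformin differed for 2601 of 15142 features (17.2%), with 2125 higher in the protein pair and 476 lower. The reference counts recur in every pool, so these calls are not independent. The count was 1305 with replicate A alone (without replicate B; 1174 higher, 131 lower), 1134 without replicate A of metformin without MTX, and 1176 and 884 without replicates A and B with MTX. The pools farthest from the reference by this measure were ERV25_ORM2 with 118 of 288 strains (41.0%), SRO9_SGN1 with 121 of 301 (40.2%) and ERG11_HYR1 with 107 of 274 (39.1%). With replicate A alone they had 66, 71 and 74 calls. SRO9_SGN1 and ERG11_HYR1 are also the pools with the smallest share of strains called with MTX, while the reference pool had the largest. The pools with the fewest calls against the reference were TPO1_TCB2 with 5 of 226 strains, the vacuolar calcium pump PMC1 with GTR2 of the EGO complex with 9 of 264, and FMP45_MID2 with 10 of 273. Few calls do not show likeness, since they also depend on depth and spread. TPO1_TCB2 had only 4225 reads in replicate B of no drug without MTX, which entered its fit. By role, the share ran from 5.2% in FMP45 and 6.9% in HUG1 pools to 23.8% in ergosterol and 30.6% in RNA-binding pools, beside 17.2% of all features. The share with replicate A alone was 1.83% in FMP45, 2.46% in HUG1, 12.7% in ergosterol and 19.7% in RNA-binding pools, beside 8.62% of all features. ERG27_ACF2 had 15 of 240 called (6.25%).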

How the data were processed

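The authors deposited raw read counts per strain barcode and pool, 1 table per library, from a 2-step PCR on barcodes, per the labels' protocols. The read filter and the barcode-matching program are not given in the sources used here. No molecular identifiers are mentioned, so intervals cover counting error only. Groups came from sample titles. The members, lists and tests were chosen with earlier results of these data known.

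Counts of features averaging 10 reads or more in the 20 libraries at 96 h were fitted with edgeR 4.0.16 in R 4.3.3 (quasi-likelihood, 1 coefficient per group, log pool total as offset, Benjamini-Hochberg adjusted p under 0.05). The spread was estimated over all 10 groups together, since each has 2 libraries. The fit to the reference pool ran pool by pool, adjusted over all pools. Strain sums used TMM. Entropy was taken from the shares, and correlations from log2 shares with a pseudocount of 0.5 reads, in Python 3.11.15, with numpy 2.4.6, pandas 2.3.3 and scipy 1.17.1. DESeq2 1.42.0 and limma 3.58.1 served as alternatives, and matplotlib 3.10.9 drew the figures. The fit was tested on simulated data. Named features were the 10 largest called changes each way with a share of at least 1% and no overlap, 1 per pool and strain, and for differences between media the 5 largest each way with the same sign in A and B. Named pools were the 5 highest and lowest by calls and by ratio, and 3 by correlation and by calls against the reference. Named strains were the 5 called each way in the most pools and the 5 largest each way in the summed test. Protein names (44) all matched symbols in a RefSeq gene table. The replicate letters were taken only to name samples, since the labels do not say that they pair libraries. The deviations of same-letter libraries with and without MTX from their group means correlated at r = -0.03. With 2 libraries a group this cannot settle whether the letters pair cultures.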

Additional observations from a re-analysis of the deposited data

Results flagged for a closer look

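The MTX effect in metformin differed from that without drug for 1887 features, and from the mean of the other 4 media for 2436, by the test of the difference itself (edgeR, adjusted p under 0.05). The features below differed from no drug by the same test.

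Strain 959 in HNM1_TPO2 averaged 0.850% in metformin with MTX and 0.457% in metformin without MTX, and 0.00298% (6 and 1 reads) with MTX and 1.68% without MTX in cultures without drug, a log2 difference of 9.94 (adjusted p 2.6e-05). Strain 335 in ERV25_RBD2 averaged 4.63% in metformin with MTX and 0.846% in metformin without MTX, and without drug 0.00215% (4 and 0 reads) with MTX and 0.741% without MTX, a difference of 11.02 (adjusted p 3.1e-04). Strain 599_ref1 in ADE17_GIS2 averaged 0.466% in metformin with MTX and 0.186% in metformin without MTX, and had 3 and 0 reads without drug with MTX, a fitted difference of 12.16 (adjusted p 2.6e-04).

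In 2 features the no-drug libraries with MTX held 0 reads, so the fitted difference depends on the prior count. Strain 731 in SSH1_ERV25 averaged 0.403% in metformin with MTX and 1.91% in metformin without MTX; its fitted difference was 11.39 (adjusted p 0.0021), and at least 7.66 with 3 reads over the group as the floor. Strain 992 in MID2_TPO4 averaged 0.124% in metformin with MTX and 0.600% in metformin without MTX; its fitted difference was 10.99 (adjusted p 0.0018), and at least 5.61 with that floor. Without replicate B of no drug with MTX its adjusted p was 0.057.

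Among lower effects in metformin, strain 40_2 in the reference pool had 1 and 23 reads in metformin with MTX and 11 and 3 reads in metformin without MTX, and without drug averaged 2.37% with MTX and had 1 and 0 reads without MTX (-10.04, adjusted p 3.7e-04). Strain 850 in ERV25_EMP47 averaged 0.0836% in metformin with MTX and 0.270% in metformin without MTX, and without drug held 6.01% and 1.07% with MTX and averaged 0.172% without MTX (-6.08, adjusted p 0.0023, and 0.10 with TMM over whole libraries). For strain 1013 in ALO1_HYR1 the difference of -11.19 (adjusted p 0.0063) went with 1 library, since with MTX and no drug it made up 22.2% of replicate A and 0.0281% of replicate B; without that replicate A the difference was -2.56 (adjusted p 0.38), and without replicate B of no drug without MTX the adjusted p was 0.051. For the remaining 2 the replicates of metformin without MTX were far apart. Strain 648 in PLM2_SNA3 held 0.115% and 5.26% there, and its difference was -9.26 (adjusted p 4.4e-04), and -4.71 without replicate B (adjusted p 0.0051). Strain 89 in ERG11_PIS1 held 0.0592% and 9.62% there, and its difference was -8.08 (adjusted p 0.015), and -1.73 without replicate B (adjusted p 0.55). It was also not called without replicate A or B of metformin with MTX (adjusted p 0.075 and 0.064) or of no drug without MTX (adjusted p 0.065 and 0.080).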

How the results depend on the processing

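The fall in effective strains was -26.7 after thinning and with a replicate block (exact p = 0.5, the smallest within letters), -28.1 to -25.4 with 1 library left out, and -9.91 by the inverse Simpson index. The count of features called with MTX fell to 3490 with TMM over whole libraries and to 3479 to 4248 with 1 library left out; it was 5630 with TMM within pools, 4794 with a replicate block and 5436 (1245 higher) with pool totals without strain 838, an alternative chosen after seeing the data. The count differing from no drug was 277 and 1165 under these TMM scalings, 1086 with a replicate block, 3025 in a fit of only the libraries compared, and 793 to 1355 with 1 library left out. That differing from the other 4 media was 448 and 1551 under TMM, 1557 with a replicate block, and 661 to 1635 with 1 library left out. That differing from the reference pool was 906 with TMM over whole libraries, 1337 with a minimum mean of 50 reads, 1754 with a replicate block, and 884 to 1305 with 1 library left out, but 3157 with TMM within pools, 3695 with no filter beyond 1 read and 3681 (1067 lower) in a fit of only the libraries compared. The count of strains called was 154 to 174 with 1 library left out, 212 with a replicate block and 255 by limma on mean log2 shares (51 higher). With a replicate block, the named differences of strains 1013 and 89 from no drug, and of strains 89, 252 and 392 from the other media, were not called. Of the single features and strains, 1 reversed, strain 89 in ERG11_PIS1 against the other 4 media, at 0.57 without replicate B of metformin without MTX (lowest value with 1 library left out -6.77). Except where a setting uses fewer samples or features, the cause was not tested. Shares under 0.01% rest on a few reads per library, which limits the folds of the steepest falls.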
